A study of Homo sapiens with 3 samples.

Results

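The regions described here are the Myc-Idax peaks on human chromosomes 4, 13 and 18, autosomes that carry few genes for their length. They are all peaks of the wild-type list on these chromosomes except those whose middle lay within 2 Mb of a chromosome end. The rule uses position alone and no measured value. It took 1045 of the 17089 peaks in the list: 569 on chromosome 4, 275 on chromosome 13 and 201 on chromosome 18. A further 73 peaks on these chromosomes lay near an end and were left out. The same rule on the other 19 autosomes left 14198 peaks for comparison.

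The study mapped where Idax binds in HEK293T cells, a human embryonic kidney line with the SV40 large T antigen and an abnormal number of chromosomes. Stable lines carried wild-type Myc-Idax, a DNA-binding mutant of it (Myc-IdaxDBM) or the empty vector, and all were precipitated with an agarose gel against the Myc tag. The labels do not say whether a line was a clone or a pool. The design text names 2 replicates per condition, but 1 peak list per tagged protein was analysed, so no value has a replicate error and no test between conditions was made. Numbers and shares carry exact 95% intervals (Poisson or Clopper-Pearson), and medians carry 95% intervals from their order statistics. These intervals cover counting error only and treat peaks as independent, although neighbouring peaks are not, so they are too narrow. The number of reads behind a peak is unknown.

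Idax, the product of CXXC4, has a CXXC zinc finger, a small fold that recognises CpG dinucleotides whose cytosines are not methylated. In vertebrate genomes most CpGs are methylated and scarce, and unmethylated CpGs cluster in CpG islands, many of which overlie gene promoters. Chromosomes stained with Giemsa show pale bands, which tend to be rich in genes and CpG islands, and dark bands, which tend to be AT-rich and poor in genes. CXXC4 and TET2, a 5-methylcytosine dioxygenase named in the series title, both lie on chromosome 4. No peak was assigned to a gene here, because the gene table used is of another build than the peaks, and for the same reason no peak sequence is printed.

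Peaks were sparse on all 3 chromosomes, and about as sparse on each of them. Chromosome 4 held 3.07 peaks per Mb between its first and last retained peak (95% interval 2.82 to 3.33), chromosome 13 held 2.96 (2.62 to 3.33) and chromosome 18 held 2.79 (2.42 to 3.21). The intervals overlap, and the density of chromosome 4 was 1.10 times that of chromosome 18 (0.933 to 1.30). These were the lowest densities of the 22 autosomes. The other 19 ran from 3.40 per Mb on chromosome 8 to 20.1 on chromosome 19, with a median of 6.13. The interval of chromosome 8 (3.10 to 3.72) overlaps those of all 3 chromosomes. Pooled, the density on chromosomes 4, 13 and 18 was 0.494 times that of the other autosomes (0.463 to 0.526). The chromosomes were named for their few genes, so the low density is given as a description with no test.

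Counted per gene, the difference was smaller. Pooled and with ends included, the 3 chromosomes had 0.935 times the peaks per protein-coding gene of the other autosomes (0.879 to 0.994). RefSeq lists 1377 protein-coding genes on the 3 chromosomes and 17745 on the other autosomes, or 3.58 and 7.11 genes per Mb of chromosome. The whole list, ends included, had 0.867 peaks per protein-coding gene on chromosome 13 (0.770 to 0.972), 0.811 on chromosome 18 (0.707 to 0.926) and 0.788 on chromosome 4 (0.727 to 0.853). The other autosomes together had 0.868 (0.855 to 0.882) and ranged from 0.657 on chromosome 11 to 1.16 on chromosome 10. Chromosomes 13 and 18 thus overlapped the pooled value, whereas chromosome 4 was just below it and above chromosome 11 alone among the autosomes. Against promoters rich in CpG, a denominator added after the data were seen, the gap was wider. There were 1.79 peaks per such promoter on the 3 chromosomes (1.69 to 1.90) and 2.19 on the other autosomes (2.16 to 2.23), where chromosome 8 was not included. Chromosomes 4, 13 and 18 had 1.86, 1.82 and 1.59, and the others ran from 1.84 on chromosome 15 to 2.76 on chromosome 10. The promoter table covers 86.4% and 81.7% of the protein-coding genes of the 2 sets. All peaks were counted whatever the coverage, so a higher coverage by itself lowers the value. Its part in the wider gap was not tested.

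**Figure D1:**
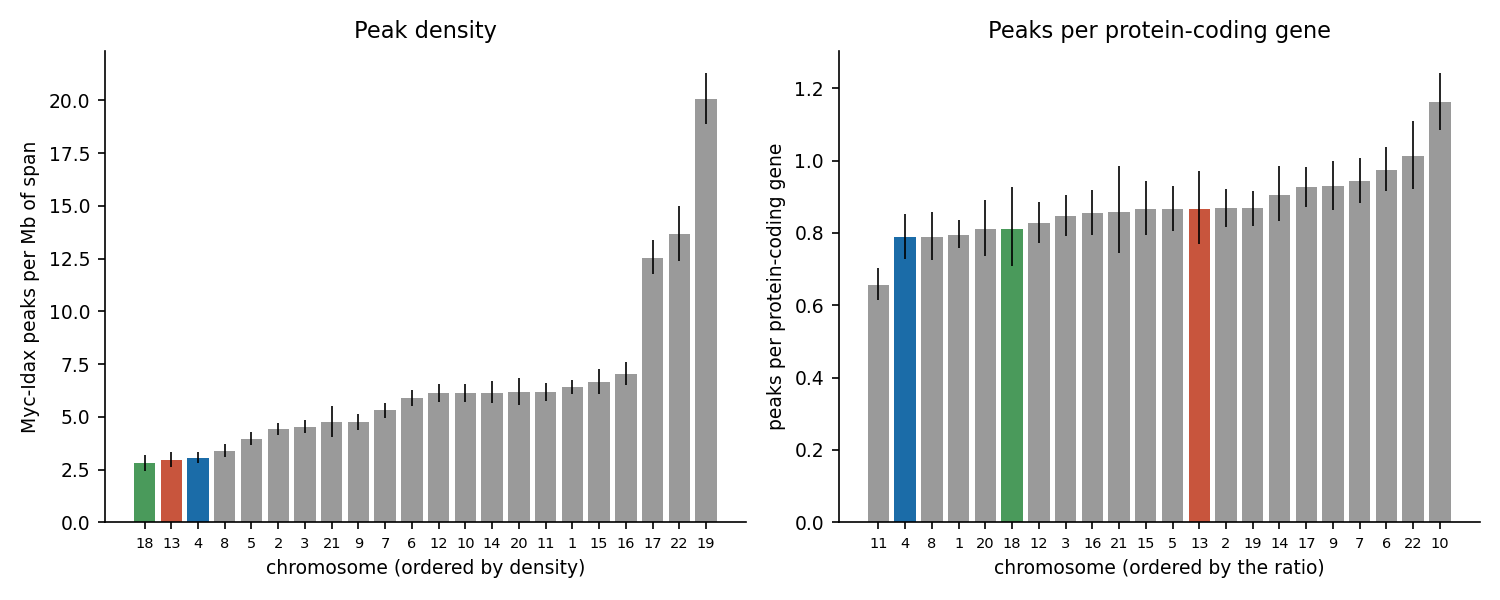
Myc-Idax peaks per Mb between the first and last retained peak (left) and peaks per protein-coding gene (right) on each of the 22 autosomes, with chromosomes 4, 13 and 18 coloured and exact Poisson 95% intervals as error bars. The 3 chromosomes are the lowest on the left (2.79 to 3.07 per Mb) and spread from 0.788 to 0.867 per gene on the right, within the range of the others.

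Single peaks on these chromosomes were like single peaks elsewhere in width and score. The median width was 1125 bp (1095 to 1166) against 1126 bp (1115 to 1135) on the other autosomes, a difference of -1 bp. The score is the authors' value, on an unstated scale. It is taken here to come from the peak caller, and a higher value is read as stronger evidence over the empty-vector cells. Its median was 231.53 (215 to 250) against 227.06 (223 to 232). The spread was narrower: the quartiles were 123.73 and 383.21 on the 3 chromosomes, and 111.28 and 414.52 on the others. Weak peaks with a score under 100 made up 18.5% of the 1045 (16.2 to 21) and 21.6% of the others (20.9 to 22.2). Peaks among the strongest 10% of the autosomal list (score 638 and above) numbered 76 of the 1045 (7.27%, 5.77 to 9.02), against 10.2% of the others (9.71 to 10.7). The intervals of the strong peaks do not overlap, and those of the weak peaks just touch. Single autosomes differed more than the pooled values. Among the other 19 the share of strong peaks ran from 4.68% on chromosome 20 to 26.3% on chromosome 21. Their share of weak peaks ran from 19.1% on chromosome 1 to 28.1% on chromosome 21.

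The 3 chromosomes also had different values from each other. Chromosome 13 had the highest medians of the 3, 245.39 for score (200 to 272) and 1177 bp for width (1105 to 1252). It had the smallest share of peaks under 600 bp of all 22 autosomes (6 of 275, 2.18%, 0.805 to 4.69) and the smallest share scoring under 100 (15.6%, 11.6 to 20.5). Chromosome 4 was intermediate, with a median score of 239.03 (221 to 266) and a median width of 1125 bp (1085 to 1189). Chromosome 18 had the lowest medians, 197.33 for score (177 to 229) and 1030 bp for width (966 to 1125), each with only 2 autosomes below it. It had the largest share of peaks under 600 bp of any autosome (16 of 201, 7.96%, 4.62 to 12.6) and the smallest share in the strongest 10% (6 of 201, 2.99%, 1.10 to 6.38). The median scores of chromosomes 13 and 18 have intervals that overlap between 200 and 229, so this order is not separated by counting error. The copies of each chromosome in these cells were not measured here, and their part in the scores was not tested.

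Compared at like width, scores still ran close. Among peaks from 600 to under 1000 bp the median score was 116.13 (105 to 131) on the 3 chromosomes and 109.34 (107 to 112) on the others. Among those from 1000 to under 1500 bp it was 264.60 (247 to 279) and 272.94 (268 to 280). The medians lay farther apart in the wide classes. Peaks from 1500 to under 2500 bp scored 424.88 (386 to 464) against 450.81 (443 to 461), and those of 2500 bp and over scored 610.69 (517 to 778) against 729.72 (697 to 772). The intervals overlap in each of these 4 classes. Wide peaks were as frequent here as elsewhere, with 35 of 2500 bp and over (3.35%, 2.34 to 4.63) against 3.30% (3.02 to 3.61). On chromosome 18 the 37 peaks from 1500 to under 2500 bp had a median of 364.55 (313 to 429), below the interval of the other autosomes. Over peaks of 1 chromosome, score rose with width with a Spearman rho of 0.78 on chromosome 4, 0.70 on chromosome 13 and 0.79 on chromosome 18, against 0.77 on the others. These are descriptions across peaks of 1 list.

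**Figure D2:**
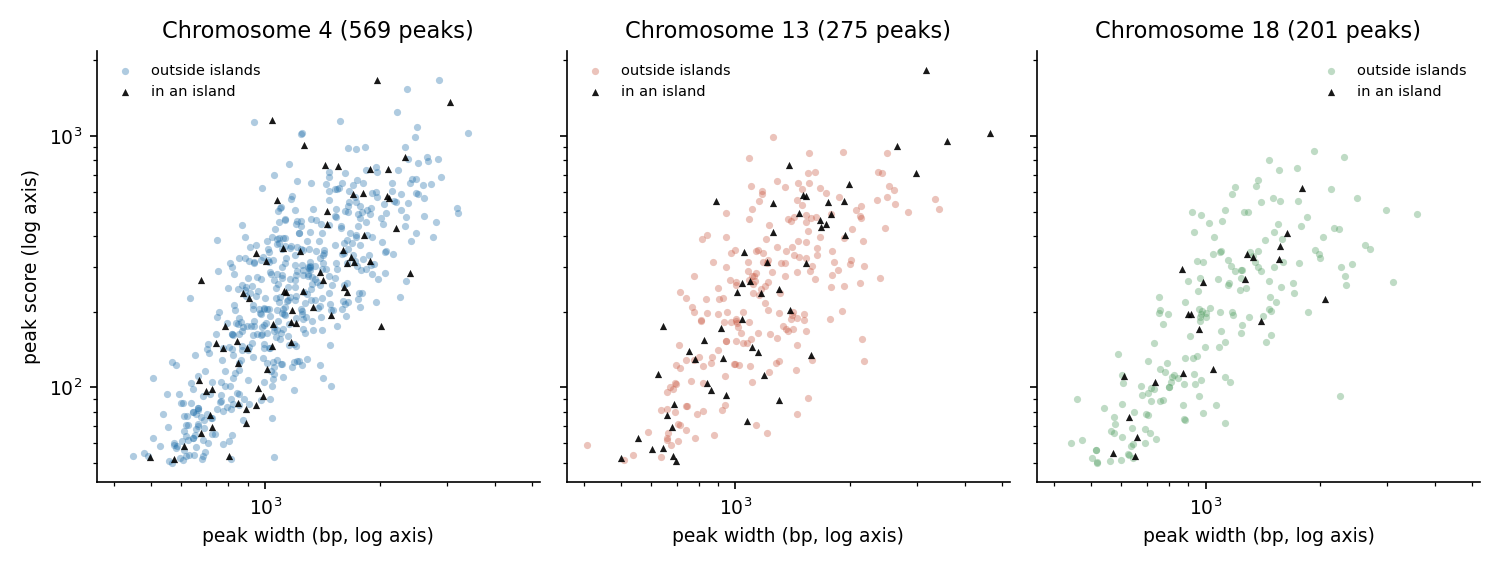
Score against width of each of the 1045 peaks, both on log axes, for chromosomes 4 (569 peaks), 13 (275) and 18 (201), with peaks in islands as black triangles. Score rises with width on each chromosome, the peaks in islands are spread through the same cloud, and the highest score on chromosome 18 is 866.75 against 1669.34 and 1820.97 on the other two.

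The strongest peaks were the following. On chromosome 13 the top peak spanned 50697635 to 50700801 in band 13q14.2, was 3167 bp wide and scored 1820.97, rank 21 among the autosomal peaks away from the ends. It lay in an island of 8 peaks, 2.56 kb from its nearest neighbour. Next came a peak at 100619928 to 100624574 in 13q32.3, which scored 1026.6 and, at 4647 bp, was the widest of the 1045. Its near neighbour at 100631520 to 100635112 scored 950.84 over 3593 bp and was the second widest on the chromosome. A narrower peak at 48611295 to 48612546 in 13q14.2 scored 988.27 over 1252 bp. The fifth, at 41633897 to 41636545 in 13q14.11, scored 914.88 and opened an island of 5 peaks. All 5 lay in unstained or moderately stained bands. The third widest peak of the chromosome, 3428 bp at 74707442 to 74710869 in 13q22.1, scored only 509.99 and stood 438 kb from any other.

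On chromosome 4 the top peak, at 89512750 to 89514714 in 4q22.1, scored 1669.34 over 1965 bp and closed an island of 5 peaks. A pair of strong peaks stood 53.7 kb apart in 4q21.22. The one at 83349821 to 83352676 scored 1663.69 over 2856 bp, and the one at 83293800 to 83296150 scored 1536.92 over 2351 bp. The fourth, at 140097098 to 140100159 in 4q31.1, scored 1358.42 over 3062 bp within an island of 7 peaks. The fifth, at 100870025 to 100872244 in 4q23, scored 1238.7 over 2220 bp. Of the 3 widest peaks on the chromosome, that at 141071289 to 141074697 in 4q31.1 (3409 bp) scored 1022.66. The others were both in 4q25, at 109087481 to 109090690 (3210 bp, score 491.37) and at 111117028 to 111120221 (3194 bp, score 516.51). Width and strength therefore picked out partly different regions.

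Chromosome 18 had no peak above 866.75. That peak, at 23669693 to 23671615 in 18q11.2, ranked 605 among the autosomal peaks and was 1923 bp wide. The same band held the third and the fifth, at 19179827 to 19181297 (score 804.16) and at 21976839 to 21978393 (score 729.27). The second, at 29671371 to 29673674, scored 826.11 in 18q12.1, which is among the darkest bands. The fourth, at 34408057 to 34409789 in 18q12.2, scored 745.95 and had no other peak within 529 kb. None of these 5 lay in an island. The widest peaks here were of middling score: 3593 bp at 25755118 to 25758710 in 18q12.1 (score 490.29), 3114 bp at 32556471 to 32559584 in 18q12.1 (score 261.5) and 2971 bp at 19748934 to 19751904 in 18q11.2 (score 506.39). The first of these stood 1311 kb from its nearest neighbour.

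Peaks of these chromosomes were farther apart, with a similar ratio of mean to median distance. The median distance from 1 peak to the next was 111 kb on chromosome 4, 104 kb on chromosome 13 and 130 kb on chromosome 18, ends included, against 49.3 kb on the other autosomes. Each of the other 19 autosomes had a shorter median, at most 87.3 kb on chromosome 3. The mean distance was 2.92 times the median on the 3 chromosomes and 3.16 times on the others, so both sets had many short and a few very long gaps. Lone peaks, with no other peak within 500 kb, numbered 39 (3.73%, 2.67 to 5.07), against 1.35% (1.17 to 1.56) elsewhere. Each of the 3 chromosomes had a larger share of them than any other autosome, where the highest was 2.90% on chromosome 8. These shares rest on 21, 10 and 8 peaks on chromosomes 4, 13 and 18. Their intervals overlap that of chromosome 8 (1.59 to 4.82), so this order is not separated by counting error. A fixed distance leaves more lone peaks where peaks are sparse. Lone peaks had a median score of 152.83 with a wide interval (86 to 356).

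Very close neighbours did not thin out to the same degree. Of the 1045 peaks, 192 lay less than 1 kb from another peak (18.4%, 16.1 to 20.9), against 13.7% (13.1 to 14.2) on the other autosomes. The share was 19.6% on chromosome 13 (15.1 to 24.8), 19.4% on chromosome 18 (14.2 to 25.6) and 17.4% on chromosome 4 (14.4 to 20.8). Only chromosome 9, at 18.1%, exceeded chromosome 4 among the other 19. Per length between the retained peaks such close gaps were still fewer in the pooled values, 30.8 against 50.2 per 100 Mb. The gaps were counted with chromosome ends included and the length without them. Of the other 19, 17 were above all 3 chromosomes (29.6 to 32.3), and chromosome 3, at 29.4, was below them. At 10 kb the order of the pooled shares was the opposite, with 25.7% (23.1 to 28.5) of the 1045 having a neighbour that near and 32.7% (32 to 33.5) elsewhere. Here 14 of the other 19 were above all 3 chromosomes (24.6% to 27.6%), and chromosome 8, at 24.2%, was below them. Peaks within 1 kb of another were weaker and narrower than the rest, with a median score of 169.28 (145 to 202) against 248.66 (230 to 264) and a median width of 1037 bp against 1158 bp. The same held elsewhere (150.70 against 241.68). How often the peak caller divided 1 enriched region into 2 peaks was not tested. The limit of 1 kb was picked with these distances in view.

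**Figure D3:**
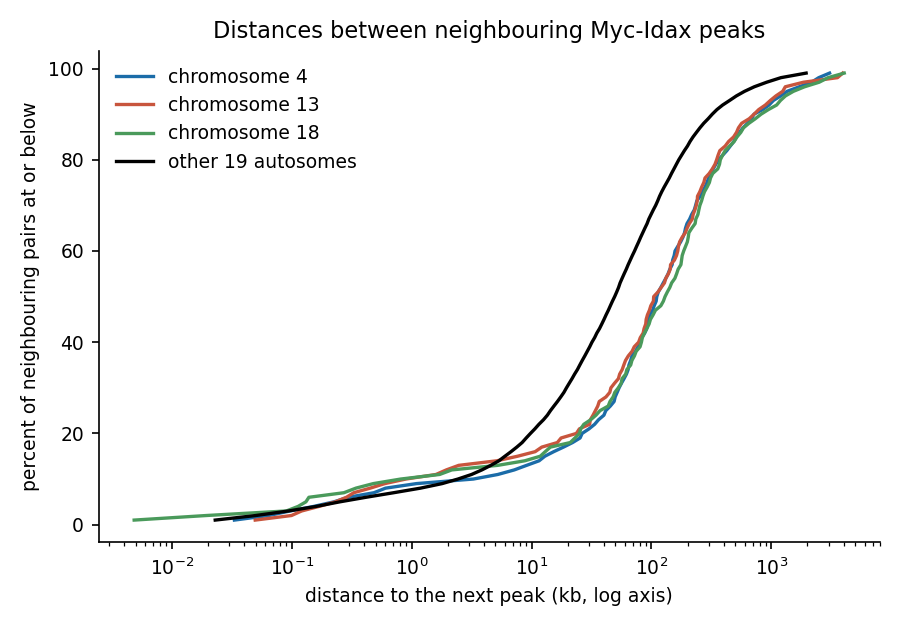
Percent of neighbouring pairs of Myc-Idax peaks whose distance is at or below the value on the log axis (kb), for chromosomes 4, 13 and 18 and for the other 19 autosomes together, chromosome ends included. At 1 kb the curves of the 3 chromosomes lie slightly above the other (9.09% to 10.6% of pairs against 7.66%), and above 10 kb they run to its right, with medians of 104 to 130 kb against 49.3 kb.

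Islands of peaks were few and small. An island was a run of at least 5 peaks in which no gap exceeded 100 kb. The 3 chromosomes held 24 islands with 147 peaks (14.1% of the 1045, 12 to 16.3), whereas 49.9% (49.1 to 50.8) of peaks on the other autosomes were in islands. By chromosome the share was 20% on 13 (15.4 to 25.2), 12.3% on 4 (9.72 to 15.3) and 10.9% on 18 (6.99 to 16.1). The lowest share elsewhere was 22.2% on chromosome 8. No island here had more than 8 peaks or was longer than 441 kb, against up to 81 peaks elsewhere. Islands took up 1.43% of the span here and 8.62% elsewhere. Inside them the density was 29.3 peaks per Mb against 35, but the definition of an island itself keeps this value high on any chromosome. It was 28.0 on chromosome 4, 30.2 on 13 and 31.8 on 18, and the lowest elsewhere was 31.2 on chromosome 8. A fixed gap joins fewer peaks where peaks are sparse. With 200 kb on these chromosomes, roughly matching their lower density, and 100 kb elsewhere, the shares were 41.4% and 49.9%, a setting added after the data were seen.

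Chromosome 13 had 8 islands, chromosome 4 had 12 and chromosome 18 had 4. The island with the highest summed score, at 50264788 to 50705299 in 13q14.2, had 8 peaks over 441 kb with a median score of 489.79, and it holds the strongest of the 1045 peaks. The most compact of the named ones, at 100619928 to 100741984 in 13q32.3, packed 8 peaks into 122 kb. Its median score was 141.58, although 2 of its peaks are among the 5 strongest of the chromosome. Another island of 8 peaks, at 27699639 to 28025336 across 13q12.13 and 13q12.2, had a median score of 188.69, and the fourth with 8, at 28366273 to 28553244 in 13q12.2, had 195.03.

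On chromosome 4, 4 islands had 7 peaks each. Near the tip of the short arm, in 4p16.1, one spanned 6576297 to 6785897 (median score 401.88) and the next spanned 6910649 to 7105551 (median score 193.52). The third lay at 139936199 to 140223687 in 4q31.1 (median score 285.77), and the fourth, with the lowest summed score, lay at 2757472 to 2966066 in 4p16.3 (median score 240.61). On chromosome 18 the largest, at 21017450 to 21270221 in 18q11.2, had 7 peaks with a median score of 263.22. The other two named ones had 5 peaks each, at 33529813 to 33768559 in 18q12.2 (median score 268.74) and at 12271517 to 12420658 in 18p11.21 (median score 184.18).

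Of the 24 islands, 17 (70.8%) were centred in unstained bands and 0 in the darkest, against 421 (63.2%) and 17 of the 666 islands elsewhere. Unstained bands held 61.4% of all 1045 peaks. Peaks inside and outside islands had close values. The median score was 237.78 (181 to 266) inside and 231.43 (215 to 252) outside, and the median width was 1118 bp and 1125 bp. Most islands mixed strong and weak peaks, since 18 of the 24 held a peak scoring under 100, as did 554 of the 666 elsewhere.

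Peak-free stretches of 2 Mb or more took up a large part of these chromosomes. A stretch ran from 1 peak of the list to the next, peaks near the ends included. There were 36, of which 2 held a centromere band, on chromosomes 4 and 18, and are left out of what follows. The other 34 added up to 111 Mb, or 30.6% of the length between the outermost peaks of each chromosome, against 16.2% on the other autosomes. The share was 34.3% on chromosome 13, 29.9% on chromosome 18 and 29.1% on chromosome 4, and at most 25.5% on any other autosome (chromosome 2). A fixed minimum length finds more stretches where peaks are sparse, so these shares are not separate from the low density. The longest stretch was 5.81 Mb, whereas 5 other autosomes had a longer one, up to 7.54 Mb on chromosome 16. The median length was 3.02 Mb against 2.57 Mb elsewhere, and 18 of the 34 were of 3 Mb or more against 48 of 132. Chromosome 13 had the longest median of any autosome with such a stretch, 3.78 Mb over 8 stretches. Unassembled sequence outside the centromere bands was not marked.

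The longest stretch on chromosome 13 ran from 61989694 to 67803640, across 13q21.2 to 13q21.32. A single peak separated it from the next, at 67806112 to 72438269 (4.63 Mb). Before them lay a stretch of 4.78 Mb at 53426138 to 58203409, from 13q14.3 to 13q21.1. Further down the arm were stretches of 3.87 Mb at 84457068 to 88323117 (13q31.1 to 13q31.2) and 3.69 Mb at 103498665 to 107187664 (13q33.1 to 13q33.3). The whole of 13q21, 18 Mb in 5 bands, held 7 peaks, or 0.389 per Mb (0.156 to 0.801). The bands before it, 13q14, held 80 peaks in 15.2 Mb, or 5.26 per Mb (4.17 to 6.55). These blocks were picked after their values were seen.

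The 5 longest on chromosome 4 were between 3.86 and 4.47 Mb. A pair of them followed each other in 4q12 to 4q13.1, at 58030777 to 62065585 and at 62069288 to 66534798. Another pair lay on the short arm, at 26863544 to 30718668 (4p15.2 to 4p15.1) and at 31998676 to 36245598 (4p15.1 to 4p14). The last, at 130015178 to 134068155, ran from 4q28.2 into 4q28.3. Each of these reached into 4p15.1, 4q13.1 or 4q28.3, which are among the darkest bands and held 0.494, 0.423 and 0.476 peaks per Mb.

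On chromosome 18 the longest were 4.39 Mb at 35145841 to 39534749 (18q12.2 to 18q12.3) and 4.09 Mb at 61090418 to 65183843 (18q21.33 to 18q22.1). They were followed by 3.86 Mb at 67956600 to 71814734 (18q22.2 to 18q22.3), 3.03 Mb at 48725001 to 51750722 (18q21.2) and 2.86 Mb at 25758711 to 28620766 (18q12.1). The last begins where the widest peak of the chromosome ends.

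Peaks that border such stretches were close in score to other peaks on chromosomes 4 and 13, with medians of 249.96 (176 to 367) and 283.99 (153 to 381). The 12 on chromosome 18 had a median of 144.85 (61.6 to 368). Over the 3 chromosomes, 60 peaks bordered a stretch, with a median score of 255.00 (181 to 335), and 6 of them stood between a pair of stretches. The most isolated of the 1045 was one of these 6, at 67803641 to 67806111 in 13q21.32. It lay 4632 kb from its nearest neighbour, was 2471 bp wide and scored 430.92, above the median of its chromosome. The most isolated peak of chromosome 18, at 39534750 to 39535379 in 18q12.3, was weak (score 54, 630 bp, 2723 kb from any other). So was that of chromosome 4, at 137316177 to 137316952 in 4q28.3 (score 80.39, 776 bp, 2193 kb).

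**Figure D4:**
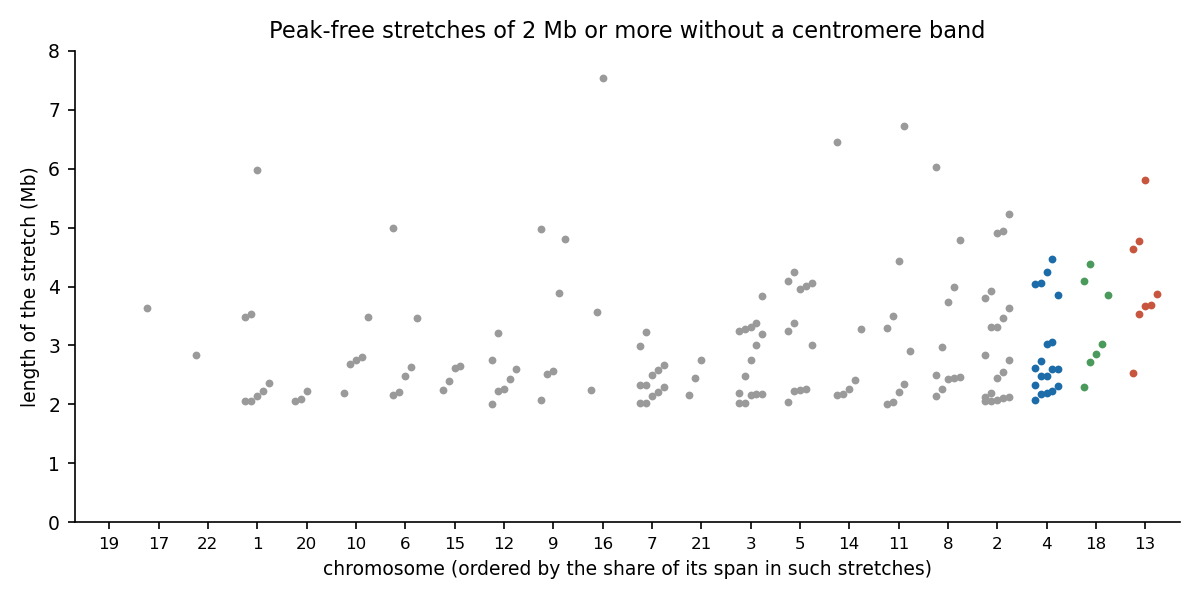
Length in Mb of each peak-free stretch of 2 Mb or more without a centromere band (1 point each), by chromosome, ordered by the share of the span that such stretches cover. Chromosomes 4, 18 and 13, coloured, have the highest shares (29.1%, 29.9% and 34.3%), while longer single stretches occur elsewhere, up to 7.54 Mb.

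Band stain is a feature that the rule did not use. Over the 3 chromosomes together, unstained bands (class gneg) held 642 peaks or 4.24 per Mb (3.92 to 4.58). The pooled density was lower in each darker class, with 3.45 per Mb in gpos25 (2.78 to 4.25), 3.03 in gpos50 (2.49 to 3.65), 2.11 in gpos75 (1.73 to 2.56) and 1.08 in gpos100, the darkest (0.871 to 1.33). Unstained bands were thus 3.92 times as dense as the darkest (3.14 to 4.94). On the other autosomes this ratio was 4.05 (3.77 to 4.36), though there the densest class was gpos25, with 11.1 peaks per Mb. No single chromosome kept the order of all 5 classes. Chromosome 13 was densest in gpos25, with 6.4 peaks per Mb (4.38 to 9.03), and had 4.58 in gpos50 (3.15 to 6.44) against 3.88 in unstained bands (3.32 to 4.50). Of its 32 gpos25 peaks, 16 lay in 13q12.2, a band of 1.1 Mb. Chromosome 18 had 1.63 in gpos100 (1.01 to 2.49) against 1.01 in gpos75 (0.521 to 1.76), and 2.86 in gpos50 against 2.5 in gpos25. Of its 21 gpos100 peaks, 19 lay in 18q12.1. Chromosome 4 had 2.68 in gpos75 against 2.59 in gpos50. Unstained bands were denser than the darkest on each of them. This ratio was 4.24 on chromosome 4 (3.09 to 5.95), 4.51 on chromosome 13 (2.96 to 7.17) and 2.49 on chromosome 18 (1.56 to 4.15), intervals that overlap. The darkest bands made up 24.0% of the banded sequence here and 16.9% elsewhere.

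Within each class of stain the 3 chromosomes were still sparser than the others. Their density was 0.503 times that of the other autosomes in unstained bands (0.464 to 0.546), 0.312 times in gpos25 (0.250 to 0.386), 0.556 times in gpos50 (0.455 to 0.673), 0.686 times in gpos75 (0.556 to 0.839) and 0.521 times in gpos100 (0.414 to 0.648). At the density of the other autosomes in each class, the banded sequence of chromosomes 4, 13 and 18 would hold 2089 peaks. It held 1038, or 0.497 times that number (0.467 to 0.528). With the overall density in place of that by stain, the value was 0.475. The part of band stain in the lower density was not tested.

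Single bands varied widely, and the densest of any stain was 13q12.2 (gpos25), with 14.5 peaks per Mb. Unstained bands ran from 0 peaks in 13q33.2, a band of 2.2 Mb, to 12 per Mb in 4p16.3, with a median of 3.89 over 49 bands, of which 34 exceeded the pooled density of the 3 chromosomes. All 14 darkest bands were below that density, from 0.233 per Mb in 13q21.1 to 2.47 in 18q12.1. The median score of the peaks was 230.43 (206 to 251) in unstained bands and 248.87 (183 to 284) in the darkest, and the median width was 1109 and 1161 bp. On chromosome 18 the 12 peaks in gpos75 bands had a median score of 100.41 (56.5 to 204) and a median width of 691 bp. The values in its unstained bands were 195.71 (165 to 260) and 1030 bp. Its 21 peaks in gpos100 bands had a median width of 1693 bp. Of the gpos75 peaks 9 lay in 18q21.2, and of the gpos100 peaks 19 lay in 18q12.1, so each value rests mainly on a single band.

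The peak-free stretches were mostly dark but not wholly so. The darkest bands supplied 47.2% of their length, gpos75 bands 19.5% and unstained bands 24.2%. In the stretches of the other autosomes these values were close for the dark classes, at 45.7% and 21.4%, and 17.5% for unstained bands. Seen from the bands, 63.2% of the darkest sequence of these chromosomes lay in such a stretch, against 47.5% on the other autosomes. In unstained bands the shares were 17.3% and 6.84%.

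**Figure D5:**
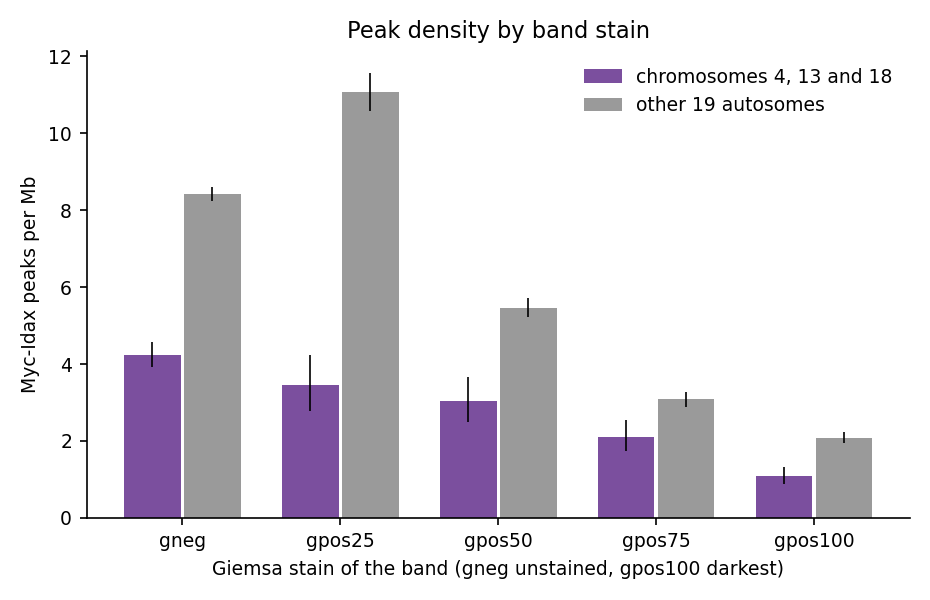
Myc-Idax peaks per Mb in bands of each Giemsa stain class, from unstained (gneg) to darkest (gpos100), on chromosomes 4, 13 and 18 and on the other 19 autosomes, with exact Poisson 95% intervals as error bars. The pooled density of the 3 chromosomes goes from 4.24 down to 1.08 per Mb and lies below that of the other autosomes in all 5 classes.

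The list of the DNA-binding mutant, called over the same empty-vector cells, had 38 peaks in all, of which 16 were on these chromosomes: 14 on chromosome 13 and 1 each on 4 and 18. They met the wild-type peaks in 2 places. On chromosome 4 the mutant peak at 105411910 to 105412349 lay inside a wild-type peak of 959 bp (score 241.28) in 4q24. On chromosome 13 the mutant peak at 67804741 to 67805641 lay inside the most isolated wild-type peak described above. On the other autosomes 8 of 19 mutant peaks overlapped a wild-type peak. Of the 14 mutant peaks on chromosome 13, 9 lay within a stretch of 2 Mb or more that has no wild-type peak, and 8 of these were in the longest, from 61989694 to 67803640. Elsewhere 1 of 19 did. The mutant peaks within that stretch scored between 52.07 and 80.8. The tagged lines may differ from the empty-vector line in the number of copies of this region, which was not tested.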

How the data were processed

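ChIP-seq with an anti-Myc gel was done on HEK293T lines. Per the submitters' processing notes, the tools were Bowtie 0.12.7 and MACS 1.4.1 on hg19. No label or note says how replicates were merged into 1 list. The deposited files are peak lists with 5 columns and no header, whose last column is the authors' score, on an unstated scale. Starts were converted to 1-based. Chromosome lengths came from GenomeInfoDb 1.38.1 and cytogenetic bands from circlize 0.4.16. The band table ends at the hg19 length of every autosome. A peak took the band of its middle. RefSeq (GRCh38.p14) gave only numbers of protein-coding genes per chromosome and promoter sequences (250 bases before to 50 after each start), called rich in CpG at 55% GC or more and an observed-to-expected CpG ratio of 0.75 or more. 15100 promoters matched a gene.

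No test was run, because each condition had 1 list and peaks are not replicates. Density ratios have exact conditional 95% intervals. Regions named are, per chromosome, the 5 highest scores, 3 widest peaks, 3 islands with most peaks (ties by summed score), 5 longest stretches and peaks overlapping a mutant peak (1 bp); the fourth islands, the most isolated peaks and single bands were added after their values were seen. Members and definitions were chosen with earlier results of these data known. Counting of islands and stretches was tested on simulated lists. Alternatives were a minimum score of 100, merging within 1 kb, other end margins, links and lengths. Sequences of peaks and gene positions on hg19 were not used. Scripts ran in Python 3.11.15 with pandas 2.3.3 and numpy 2.4.6, intervals came from SciPy 1.17.1 and plots from matplotlib 3.10.9.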

Additional observations from a re-analysis of the deposited data

How the results depend on the processing

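Of 46 alternatives, 35 stayed within the interval of the reported value, or within 1.5 times a count, and 11 did not. The island count of 24 followed the definition: 5 with a link of 50 kb, 58 with 200 kb, 113 with at least 3 peaks and 14 at a minimum score of 100. The share of peaks in islands stayed lower than on the other autosomes under each of these, with a difference of -35.9 percentage points as reported, -24.1 at 50 kb, -28.0 with at least 3 peaks, -32.2 at a minimum score of 100 and -8.51 with 200 kb on chromosomes 4, 13 and 18 only. Stretches numbered 34 as reported, 83 at 1 Mb and 18 at 3 Mb. A shorter minimum length finds more stretches by construction. Counted per CpG-rich promoter instead of per gene, the ratio to the other autosomes was 0.815 instead of 0.935 (0.879 to 0.994). The unequal coverage of the promoter table enters this ratio, and the cause was not tested. The density ratio ranged from 0.478 to 0.513. The differences in median width (-24 to 20 bp) and score (-13.4 to 12.1) took both signs and have no settled direction. Read depth is unknown and limits which weak peaks were found. No paired analysis was possible because the lists carry no replicates.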
